A study of Arabidopsis thaliana with 6 samples.

Results

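miR159a and miR159b-3p are the forms of the plant microRNA miR159 listed in a small RNA sequencing study of Arabidopsis thaliana leaf explants. They were chosen as the listed sequences with a predicted site in both MYB33 and MYB65, after the relatives of the miR319 family were left out. Sequences with a site at a psRNATarget expectation of at most 4 in 4 or more of 5 TCP genes counted as miR319. The rule left 2 of 142 distinct mature sequences, which the deposited table lists in 178 precursor entries. Expectation is a penalty score of the pairing between a small RNA and a transcript, and a lower value stands for better pairing.

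The study compared explants of the ein2-1 mutant with explants of the Col-0 accession, with 3 libraries of each genotype that the design text calls biological replicates. EIN2 is the signal transducer that carries the ethylene signal from the receptors at the endoplasmic reticulum to the nucleus, and ein2-1 plants are insensitive to ethylene. Seedlings of both genotypes were 14 days old, were held under water for 1 h, and then gave leaf explants that spent 7 days on callus-inducing medium (CIM). RNA came from the upper part of the explant in every library. No group without submergence and no group without CIM was analysed here, so the values below compare genotypes after both treatments.

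miR159 is conserved across land plants. In Arabidopsis it is known for keeping the GAMYB-like transcription factors MYB33 and MYB65 silent in vegetative tissue, where MIR159a and MIR159b act redundantly. Other MYB genes with a miR159 site act in pollen and the male germ line. miR319 is closely related to miR159 in sequence, but is known for cutting the mRNAs of TCP transcription factors that restrain leaf cell proliferation.

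The mature sequences are shown 5′ to 3′ because their few differing bases separate the families. Capitals mark the seed, bases 2 to 8.
miR159a: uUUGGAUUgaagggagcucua
miR159b-3p: uUUGGAUUgaagggagcucuu
miR319c: uUUGGACUgaagggagcuccu
miR319a/b: uUGGACUGaagggagcucccu
Positions are counted from 1 at the 5′ end of miR159a. miR159b-3p differed from miR159a by A21U alone, so both share 1 seed. miR319c differed by U7C, U20C and A21U, which puts 1 of its 3 differences inside the seed. miR319a/b starts 1 base later, and over the 20 bases it can be aligned to, it differed by U7C, U20C and A21C.

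Both members lie near the 3′ end of their hairpins, and each was the only listed sequence of its hairpin. The hairpins are those of RefSeq (TAIR10.1), on chromosome 1, with the mature sequence in capitals, as DNA.
MIR159a: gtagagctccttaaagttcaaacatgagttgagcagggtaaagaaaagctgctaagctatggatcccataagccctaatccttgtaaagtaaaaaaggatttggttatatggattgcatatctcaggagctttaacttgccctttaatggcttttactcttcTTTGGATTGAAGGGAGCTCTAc
MIR159b: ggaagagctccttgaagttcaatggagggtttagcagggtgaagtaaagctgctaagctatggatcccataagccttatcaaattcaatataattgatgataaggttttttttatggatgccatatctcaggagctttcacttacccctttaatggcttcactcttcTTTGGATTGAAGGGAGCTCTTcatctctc
MIR159a (AT1G73687) spans chr1:27713233-27713416 on the minus strand, 184 bases, and its mature sequence begins at base 163. MIR159b (AT1G18075) spans chr1:6220646-6220841 on the plus strand, 196 bases, and its mature sequence begins at base 168. No listed sequence matched MIR159c.

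Both members were among the most abundant microRNAs of every library. Raw counts of miR159a were 105723, 179463 and 153709 in the ein2-1 libraries, against 91545, 65251 and 58187 in the Col-0 libraries. Raw counts of miR159b-3p were 32216, 63275 and 34309 in ein2-1, against 27603, 16702 and 14328 in Col-0. By raw count miR159a ranked 2 or 3 among the distinct sequences of every library, and miR159b-3p ranked 4 or 5. The table totals, summed over entries, were 1163907 to 1882664 counts in ein2-1 and 559411 to 940058 in Col-0.

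Scaled to CPM (counts relative to the library total) by the trimmed mean of M values, here called TMM CPM, both members were higher in ein2-1. miR159a had 106533, 123300 and 145856 TMM CPM in ein2-1, against 80905, 90213 and 77270 TMM CPM in Col-0. It averaged 125230 ± 19732 TMM CPM in ein2-1 and 82796 ± 6675 TMM CPM in Col-0 (SD, n = 3 each). The lowest ein2-1 library lay above the highest Col-0 library. The log2 fold change was 0.60 (SE 0.14, 95% interval 0.29 to 0.91, adjusted p 0.0020 by edgeR's quasi-likelihood test). Explants are bulk tissue, so fewer cells of a type and less RNA per cell cannot be told apart.

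miR159b-3p behaved alike on this scale. It had 32463, 43473 and 32556 TMM CPM in ein2-1, against 24395, 23091 and 19027 TMM CPM in Col-0. It averaged 36164 ± 6330 TMM CPM in ein2-1 and 22171 ± 2800 TMM CPM in Col-0 (SD, n = 3 each). Again the genotypes did not overlap, and the second ein2-1 library stood above the other two of its genotype. The log2 fold change was 0.71 (SE 0.16, 95% interval 0.36 to 1.05, adjusted p 0.0014 by edgeR's quasi-likelihood test).

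**Figure D1:**
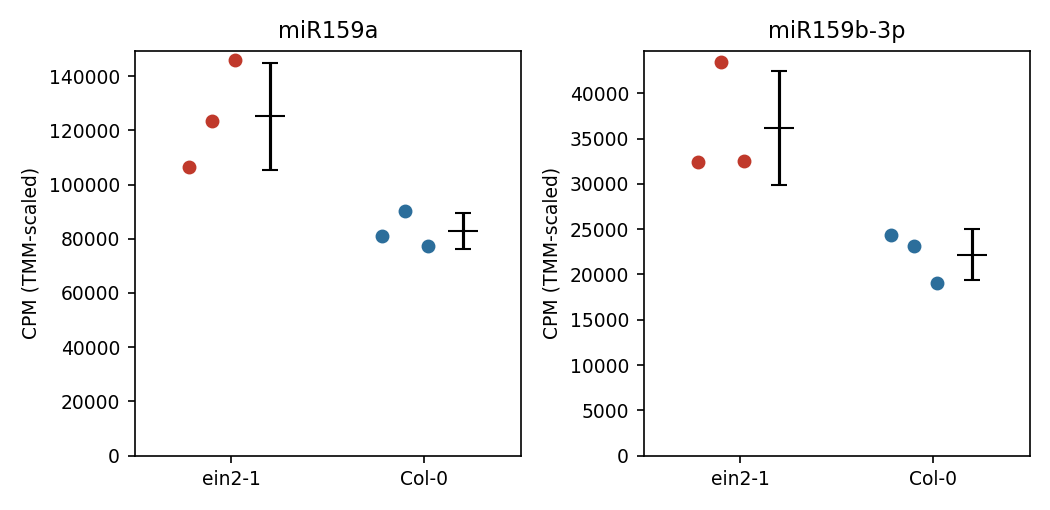
Level of miR159a and miR159b-3p in each library, in TMM CPM on axes from 0, with ein2-1 left and Col-0 right; points are libraries, and the bar beside them gives the mean and SD of 3. All 3 ein2-1 libraries lie above all 3 Col-0 libraries for both members.

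Many other sequences of the table differed as well. Of the 118 distinct sequences tested, 66.9% passed the test in one direction or the other and 34.7% rose in ein2-1. A share of 35.6% had all ein2-1 libraries above all Col-0 libraries. The log2 fold changes of miR159a and miR159b-3p stood at percentiles 65.3 and 69.5 of all tested sequences. On TMM scaling the median sequence had a log2 fold change of 0.06, and the members lay 0.54 and 0.65 above it.

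The size of the rise, and for miR159a its sign, followed the scaling. The TMM factors were 0.737 to 0.853 in ein2-1 and 1.20 to 1.32 in Col-0, so a scaling without them moves every fold change downwards. Over 7 scalings the log2 fold change ran over -0.11 to 0.60 for miR159a and over 0.01 to 0.71 for miR159b-3p, and each member passed the test in 4 of the 7. miR159a had -0.11 under library-size scaling (adjusted p 0.29 by edgeR). The main fit kept each precursor entry, so a sequence with several precursors entered it several times. With 1 entry per distinct sequence under TMM neither member passed. miR159a then had 0.42 (adjusted p 0.20 by edgeR) and miR159b-3p 0.57 (adjusted p 0.11 by edgeR). A scaling shifts all sequences nearly alike, so the distance to the median of all tested sequences is close to fixed, at 0.51 to 0.57 for miR159a and 0.63 to 0.71 for miR159b-3p. Leaving out each library in turn, that distance ran over 0.36 to 0.55 for miR159a and over 0.49 to 0.78 for miR159b-3p. No spiked-in RNA is named in the table, so no scaling here measures a shift of all microRNAs together.

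**Figure D2:**
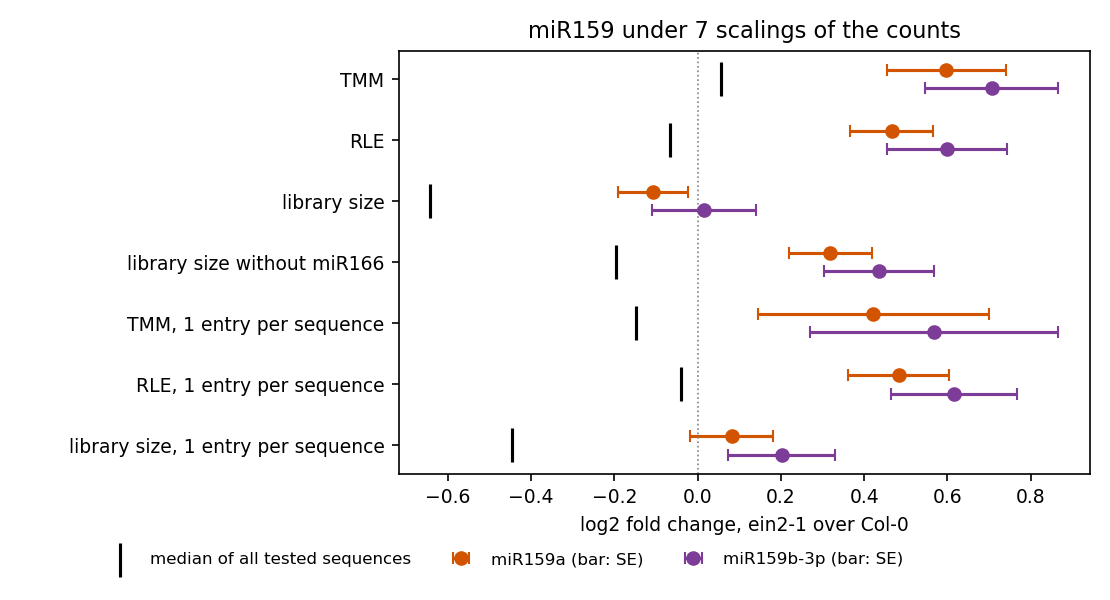
Horizontal axis, fitted log2 difference between ein2-1 and Col-0 for miR159a and miR159b-3p under 7 scalings of the counts (rows), with bars of 1 SE and a tick for the median of all tested sequences. Both members move with the median, and lie 0.51 to 0.71 to the right of it in every row.

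Ratios between sequences of the same library do not depend on the scaling. The proportion of the miR159 counts held by miR159b-3p was 23.4%, 26.1% and 18.2% in the ein2-1 libraries, against 23.2%, 20.4% and 19.8% in the Col-0 libraries. The genotypes overlapped, since the third ein2-1 library held the lowest value and the second ein2-1 library the highest. The means were 22.6% ± 3.97 in ein2-1 and 21.1% ± 1.82 in Col-0 (SD, n = 3 each), a difference of 1.45 percentage points that did not exceed the spread between libraries (two-sided exact permutation test, p = 0.6). Without the second ein2-1 library the difference was -0.30 percentage points. Counting error was small beside this spread, with a Wilson 95% half-width of at most 0.29 percentage points.

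miR159 as a proportion of the table, which does depend on the total taken, also overlapped between the genotypes. With each distinct sequence counted once, miR159a and miR159b-3p together held 22.7%, 24.6% and 25.4% of the counts in ein2-1, against 21.4%, 24.6% and 21.5% in Col-0. The difference of the means was 1.74 percentage points (two-sided exact permutation test, p = 0.3). With the total summed over all entries, where a sequence with several precursors is counted several times, the difference was -0.73 percentage points. miR166, which has the most counts, is listed under several precursors.

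The balance between miR159 and its relative miR319 differed far more than either of these proportions. Raw counts of miR319a/b were 2373, 3796 and 4040 in ein2-1, against 17338, 11132 and 10308 in Col-0. Raw counts of miR319c were 520, 527 and 266 in ein2-1, against 3558, 2508 and 2283 in Col-0. In the deeper ein2-1 libraries both miR319 forms thus had fewer counts than in any Col-0 library.

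For each miR319 count there were 47.7, 56.2 and 43.7 miR159 counts in the ein2-1 libraries, against 5.70, 6.01 and 5.76 in the Col-0 libraries. The log2 ratio averaged 5.61 ± 0.18 in ein2-1 and 2.54 ± 0.04 in Col-0 (SD, n = 3 each), a difference of 3.07, or 8.40-fold. The genotypes lay far apart with no overlap, and the two-sided exact permutation test gave p = 0.1, the smallest value that 3 against 3 libraries allow. Leaving out any 1 library gave differences of 2.97 to 3.15. miR319 had the larger fold changes, as miR319a/b had a log2 fold change of -2.33 (SE 0.19, adjusted p 2.0e-07 by edgeR) and miR319c one of -3.08 (SE 0.25, adjusted p 2.0e-07 by edgeR). Both fell under each of the 7 scalings.

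**Figure D3:**
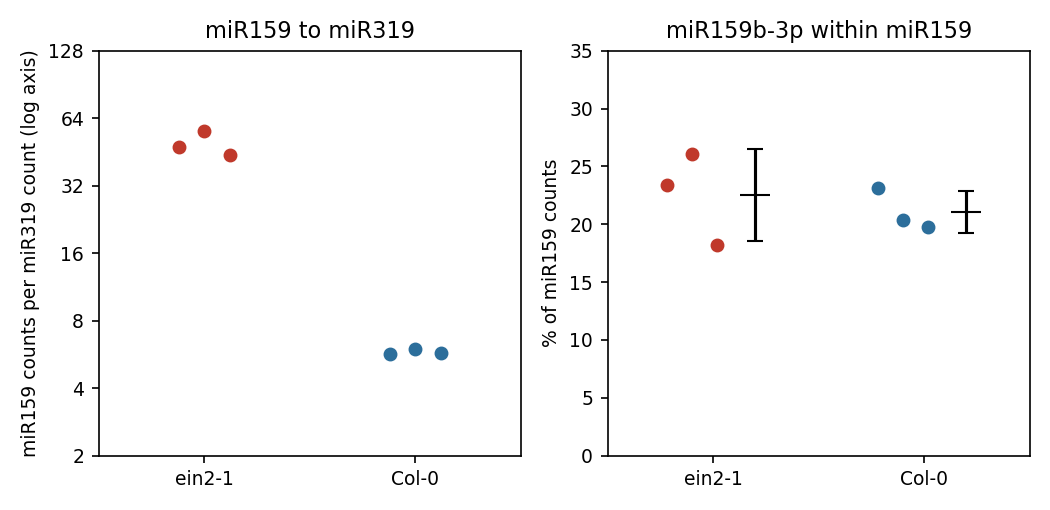
Left, miR159 counts per miR319 count in each library on a log2-spaced axis; right, miR159b-3p as a percentage of the miR159 counts, with the mean and SD of 3 libraries; ein2-1 stands left of Col-0 in both panels. The ratio to miR319 is 43.7 to 56.2 in ein2-1 and 5.70 to 6.01 in Col-0, while the percentages of miR159b-3p overlap.

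The authors predicted target sites with psRNATarget and deposited pairs with expectations of up to 5. miR159a had a predicted site in 95 genes and miR159b-3p in 87, against a median of 67.5 genes for the 142 distinct sequences. The members shared 53 genes, which is 55.8% of the genes of miR159a and 60.9% of those of miR159b-3p. Each shared gene had the same expectation for both. The 20 genes at an expectation of at most 3 were the same for both members, so the genes of 1 member alone all had poorer scores. Whether every such pair was deposited was not tested, so a gene listed for 1 member alone need not lack a site of the other. Most best sites lay in coding sequence, 61 for miR159a and 56 for miR159b-3p, and cleavage was the predicted mode for 83 and 71 genes.

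All 8 genes of the list here called GAMYB-like, which takes in DUO1, had a site of both members at an expectation of at most 3. Each of these sites lay in coding sequence. The members were chosen for having sites in MYB33 and MYB65, so the presence of those sites is not a result. The target sites are shown 5′ to 3′ as RNA, as deposited by the authors and placed on TAIR10.1. They vary opposite a base at which miR159 and miR319 differ. Capitals mark site bases that pair with miR159a neither by Watson-Crick nor by G:U pairing.
MYB33 and MYB65: uggagcucccuucaUuccaaU
MYB104: uggagcucccuucaUuccaag
MYB81: uCgaguucccuucaUuccaaU
DUO1: uggagcuccAuucgauccaaa
MYB101: uagagcuuccuucaaAccaaa
MYB97: AUgagcucucuucaaAccaaa
MYB120: AgCagcucccuucaaAccaaa
ACS8: uCgaguuucuuucaauccaaa
MYB33 and MYB65 carried an identical site, and that of MYB104 differed from it at 1 base. The sites of MYB101 and MYB120 differed from that of MYB33 at 5 bases each, and that of MYB97 at 6.

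MYB33 (AT5G06100) and MYB65 (AT3G11440), the gibberellin-linked regulators that miR159 is best known for, each had an expectation of 2.5 for both members. The MYB33 site lies at chr5:1839579-1839599 on the plus strand, in exon 4 of the 4 of its gene model. The MYB65 site lies at chr3:3604151-3604171 on the plus strand, in exon 3 of 4. MYB104 (AT2G26950, chr2:11501206-11501226, minus strand) had an expectation of 2.0, and MYB81 (AT2G26960, chr2:11506466-11506486, minus strand) one of 3.0, the poorest of the 8.

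The remaining genes of the GAMYB-like list are known from the male gametophyte. DUO1 (AT3G60460, chr3:22343375-22343395, minus strand), a regulator of the male germ line, had an expectation of 2.0. Among the pollen tube regulators, MYB101 (AT2G32460, chr2:13783168-13783188, minus strand) and MYB97 (AT4G26930, chr4:13528587-13528607, plus strand) had 2.0, and MYB120 (AT5G55020, chr5:22324982-22325002, minus strand) had 2.5. These values are alike for both members.

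The lowest expectation of either member, 1.5, belonged to a gene outside the MYB family. ACS8 (AT4G37770) encodes an aminocyclopropane-carboxylate synthase, an enzyme of ethylene biosynthesis, and its site lies in coding sequence at chr4:17752740-17752760 on the plus strand, in exon 3 of 4. A second gene of that enzyme family, ACS4 (AT2G22810), had a site of both members at 3.0 and was named after its values were seen. Of the 13 listed genes of ethylene perception and signalling, among them ETR1, CTR1, EIN2, EIN3 and EBF1, 0 had a predicted site of either member, a count from which nothing is read, since so few genes had one. In all, 12 genes had an expectation of at most 2.5, of which 7 were GAMYB-like. MYB33 and MYB65, through which the members were chosen, are among these 7. Besides ACS8, the others were RER1B, whose product returns membrane proteins to the endoplasmic reticulum, SPL (SPOROCYTELESS), a regulator of sporocyte formation, AT2G34010 and AT5G27395, all at 2.5. AT5G27395 ties with the others and was named after its value was seen. OPT1, an oligopeptide transporter gene, had a site in its 3′ UTR at 3.5.

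The base that lies opposite position 7, where miR159 and miR319 differ, sorted these genes into 3 kinds. ACS8, DUO1, MYB101, MYB97 and MYB120 have an A there, which pairs with miR159 and not with miR319. For these 5 genes the expectation of miR319c was 1.5 higher than that of miR159b-3p. MYB33, MYB65, MYB104, MYB81 and OPT1 have a U there, which pairs with neither, and miR319c and miR159b-3p had equal expectations. miR319a/b, the more abundant miR319 form, scored better than either at MYB33, MYB65 and MYB104, with 1.5 at each.

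The TCP genes have a G at that place, which pairs with miR319 and forms a G:U pair with miR159. The site of TCP4, a leaf growth regulator, is shown against miR159b-3p with unpaired bases in capitals.
TCP4: agggguCcccuucaguccagU
miR159b-3p had an expectation of 4.0 for TCP4 and TCP10 and of 5.0 for TCP3, 0.5 higher than miR319c at each. miR319a/b had 2.5 for TCP4 and TCP10 and 3.0 for TCP3. miR159a had no listed site in any of the 5 TCP genes. The rule told the members from miR319 by sites in these same genes. The contrast between the families there was thus partly set by the choice and is not a result. The expectation is computed from base pairing, so these scores restate the sequences and do not measure cleavage.

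**Figure D4:**
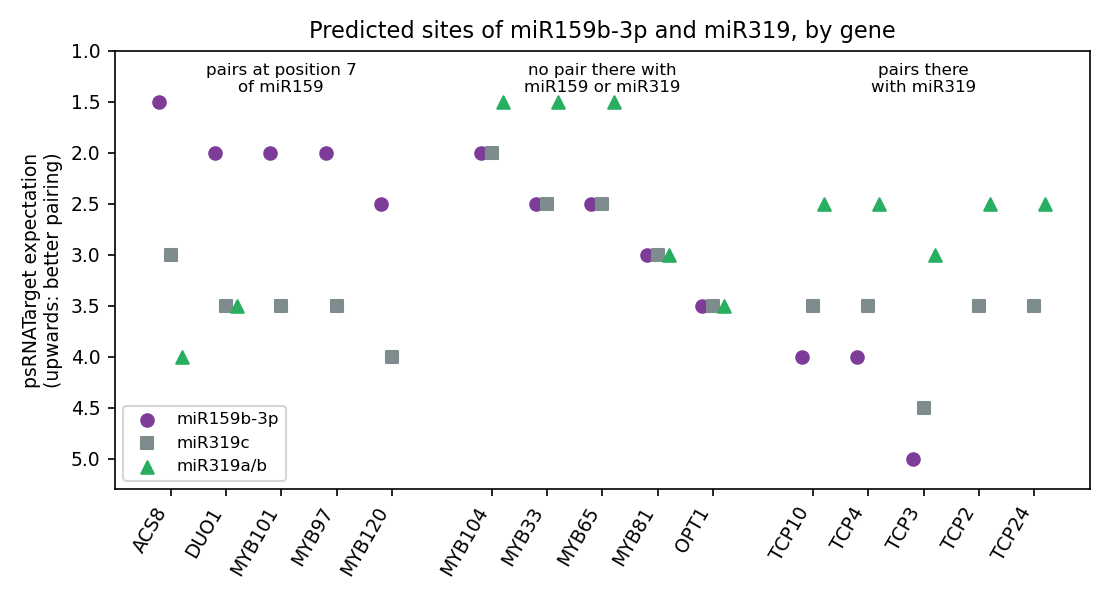
psRNATarget expectation (vertical axis, better pairing upwards) of miR159b-3p, miR319c and miR319a/b for each named gene, grouped by the pairing at position 7. miR159b-3p lies 1.5 above miR319c in the first group, level with it in the second, and 0.5 below it for the TCP genes of the third that it has a site in. The TCP genes were part of the rule that left miR319 out.

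The counts were then summed over every listed sequence with a site in a gene. Besides miR159, miR319c had a site in all 8 GAMYB-like genes (best expectation 2.0 to 4.0) and miR319a/b in 5 (1.5 to 3.5). miR5640 had a site in MYB33, and 1 unannotated sequence had one in MYB97. Of the counts of all sequences with a MYB33 site, miR159 held 97.9%, 98.2% and 97.7% in ein2-1, against 84.9%, 85.5% and 84.9% in Col-0. miR319 held 2.05%, 1.75% and 2.24% in ein2-1, against 14.9%, 14.2% and 14.7% in Col-0. All ein2-1 libraries were thus on one side of all Col-0 libraries.

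At MYB101, where miR319c is the only miR319 with a listed site, miR319 held 0.38%, 0.22% and 0.14% of the counts in ein2-1, against 2.90%, 2.97% and 3.05% in Col-0. Nearly all small RNAs with a site there were miR159 in both genotypes. At TCP4, miR159b-3p held 91.7%, 93.5% and 88.7% of the counts in ein2-1, against 56.9%, 55.0% and 53.2% in Col-0, although its expectation there was the poorer one. The more abundant miR159a had no listed site in TCP4, so its counts are not part of these shares. The members differ at base 21 alone, and each gene listed for both had equal expectations. The missing entry thus need not mean that miR159a pairs less well there, and the TCP4 shares would change with its counts. These shares add counts of small RNAs with unequal pairing and do not measure binding.

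**Figure D5:**
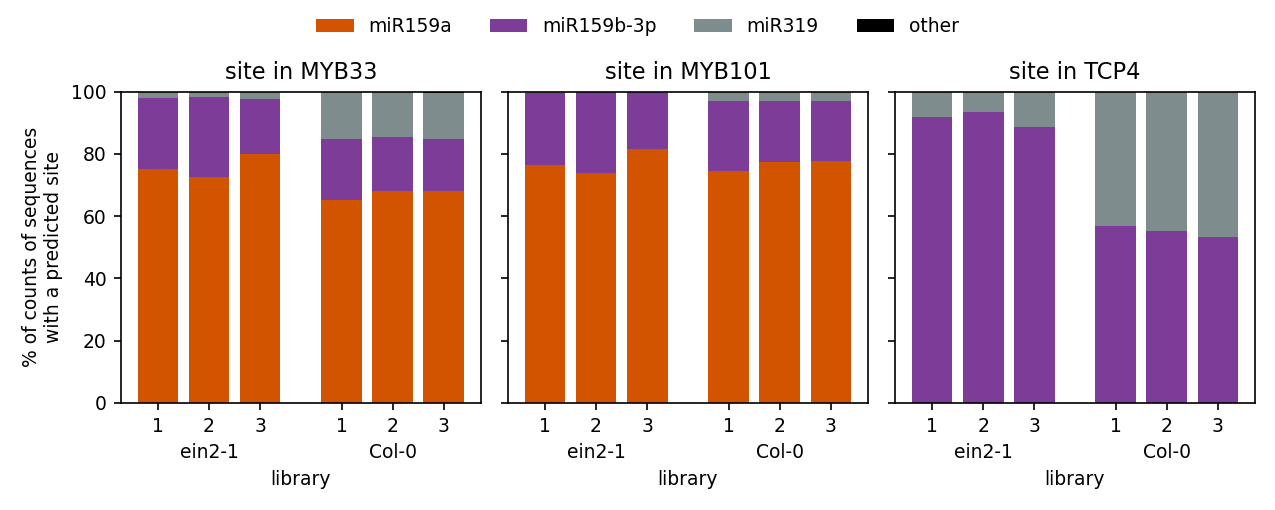
Percentage of the raw counts of all listed sequences with a predicted site in MYB33, MYB101 or TCP4 held by miR159a, miR159b-3p and miR319, 1 bar per library, ein2-1 left and Col-0 right. The miR319 portion at MYB33 is 1.75% to 2.24% in ein2-1 and 14.2% to 14.9% in Col-0. No site of miR159a is listed in TCP4, so that panel leaves its counts out.

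Summed over the 5 sequences with a MYB33 site, the level in TMM CPM was 142031, 169916 and 182611 in ein2-1, against 124069, 132473 and 113435 in Col-0. The genotypes did not overlap on that scale. As a share of the distinct-sequence total the same sum was 23.2%, 25.1% and 26.0% in ein2-1, against 25.2%, 28.8% and 25.3% in Col-0. Here the genotypes overlapped, with the higher mean in Col-0. The direction of the sum thus depended on the scale. The mRNAs of MYB33, MYB65 and the other targets were not analysed here.

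Among 7 tested sequences of miR319, miR156, miR157 and miR172, families that act with miR159 in leaf growth and phase change, 4 rose, 2 fell and 1 did not pass under TMM, beside 66.9% called and 34.7% risen among all sequences tested. The 2 that fell were those of miR319. The 20-base form of miR156, which keeps the juvenile phase by silencing SQUAMOSA promoter-binding-like transcription factors, rose by 1.13 on the log2 scale (SE 0.18, adjusted p 6.3e-05 by edgeR) and passed under all 7 scalings. So did miR172b/e-5p, at 1.95 (SE 0.43, adjusted p 0.0011 by edgeR). The 19-base form of miR156 and miR172a/b-3p passed in 3 of the 7 each, and miR157 passed in none. No sequence of miR858 or miR828, which target other MYB genes, was listed.

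Over the 6 libraries the sequence most like miR159a in log2 TMM CPM was an unannotated one of 24 bases (Pearson r 0.97), followed by miR172a/b-3p and a further unannotated one, both at 0.96. For miR159b-3p they were miR398b/c-3p (0.96), which targets mRNAs of copper proteins, an unannotated sequence (0.96) and miR399b/c-3p (0.92), which acts in phosphate supply. The points share their libraries and scaling factors, and the genotype difference enters each r. The nearest sequences of one member were not those of the other. The authors' deposited table gives a log2 fold change of 0.75 for miR159a and 0.87 for miR159b-3p. The edgeR fit used here gave the same values to 2 decimals when no filter on low counts was applied.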

How the data were processed

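Small RNA was sequenced in 6 libraries. The deposited table gives raw counts per miRNA precursor entry, per the file headers. The submitters' processing notes name cutadapt for adapters and TAIR10 as the genome. Neither aligner nor counting tool is named in them. The authors also deposited normalised values (a score, scaled to effective library sizes and rounded), a log2 fold change, and a p-value with its FDR. The psRNATarget expectation is a score deposited with each site, in 23944 pairs of entry and site. Entries with the same mature sequence carry the same counts and were counted once where the text counts sequences. In the main fit they stayed separate, in the library totals, the TMM factors and the adjustment of p.

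Sequences were named, and sites placed, by exact match to the TAIR10.1 reference. Of the 240 coordinates that the authors gave for transcripts with a site of a member, 240 lay inside the reference gene, and 181 of 182 best sites were placed. Pairing was computed from the bases. At 50 of the sites so compared it differed from the deposited alignment. The capitals in the sites shown follow the computed pairing.

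The test of the counts was the quasi-likelihood one of edgeR 4.0.16, run in R 4.3.3 (TMM, filterByExpr, genotype as the only term, all entries fitted, Benjamini-Hochberg adjusted p below 0.05, two-sided). SEs were derived from the F statistic. Ratios within a library were tested by an exact permutation test over libraries. Intervals of shares cover counting error only. Alternatives were other scalings and filters, DESeq2 1.42.0, limma-voom (limma 3.58.1), a replicate block and leaving out each library. Named genes are the members, a list of 8 GAMYB-like genes, OPT1, ACS8, 5 TCP genes, ethylene genes with a site, the 10 genes with the lowest expectation (ties by locus), listed miRNA families and the 3 most alike sequences of each member. The members and lists were chosen with earlier results of these data known. Protein-coding marker genes of callus or leaf cannot be read from this table, so the tissue label was not checked.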

Additional observations from a re-analysis of the deposited data

How the results depend on the processing

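miR159a turned to -0.11 under library-size scaling (edgeR adjusted p 0.29) and no longer passed with 1 entry per distinct sequence under TMM (0.42, adjusted p 0.20) or library-size scaling (0.081, adjusted p 0.50). miR159b-3p no longer passed under library-size scaling (0.015, adjusted p 0.93), nor with 1 entry per sequence under TMM (0.57, adjusted p 0.11) or library-size scaling (0.20, adjusted p 0.19). The cause was not tested. The other settings kept both calls: RLE, DESeq2, limma-voom, both filters and library-size scaling without miR166. Leaving out each library gave 0.48 to 0.84 for miR159a and 0.55 to 0.94 for miR159b-3p, all passing. The number of sequences called was 63 to 85 over all settings, against 79. Leaving out each library, it was 71 to 84.

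Leaving out each library, the difference in the miR159b-3p share ran over -0.30 to 3.61 percentage points, the lowest without ein2-1 replicate 2, that in the miR159 share over 1.16 to 2.79, and that in the log2 ratio to miR319 over 2.97 to 3.15. The difference in the miR159 share was -0.73 with the total over all entries and 3.08 between medians. That in the log2 ratio was 2.95 for miR159a over miR319a/b alone. At an expectation of at most 3 each member had 20 genes, 8 of them GAMYB-like.

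With a replicate block the log2 fold changes were 0.59 and 0.70, and 78 sequences were called. Same-numbered libraries of the genotypes correlated at 0.21, -0.04 and 0.17, against -0.24 to 0.04 for differently numbered ones. Of the same-numbered values, 0.21 and 0.17 lay above that range and -0.04 lay within it. Whether the numbers mark pairs was not tested, and the main fit had genotype as its only term. With 3 libraries a genotype, the exact tests cannot pass 0.05.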
